A study of Homo sapiens with 94 samples.

Results

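Secondary transcription start sites are stretches of weaker initiation beside the main, or primary, start sites of promoters. All 11513 of them in the authors' deposited table of PRO-cap results were described here, out of 40675 start site regions in the 7 PRO-cap tables of the series. The other tables held 7112 primary, 6069 divergent, 2281 sense and 2934 antisense intragenic, and 5216 sense and 5550 antisense dispersed sites. PRO-cap sequences the capped 5′ ends of RNA still held by RNA polymerase, so a site's level follows where transcription starts and not how long the RNA lives. The cells were human embryonic kidney HEK293 T-Rex Flp-in cells, an established line, carrying TET-CD-GFP in each of the 3 groups. One group had received 880 nM 5-aza-2'-deoxycytidine (Aza) for 48 h, a second 1 µg/mL doxycycline for 48 h, and the third was untreated. Each group had 3 libraries, with chicken DF-1 cells added as a spike-in at 10 to 1. Doxycycline switches on the construct in this type of line, and no group with a mutant construct entered the PRO-cap comparisons, so the drug and the construct cannot be told apart. The p-values measure the spread between libraries of a single line, which may be partly technical.

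In mammalian promoters polymerase rarely starts at a single base. CpG island promoters in particular start transcription over broad stretches, with a sharp peak flanked by weaker initiation, and run divergently from paired start sites. TET dioxygenases oxidise 5-methylcytosine to 5-hydroxymethylcytosine, Aza traps DNA methyltransferases and so lowers methylation in dividing cells, and DNA methylation is known for repressing CpG-rich promoters. Cytosolic ribosomal protein genes are known for a pyrimidine-rich start site.

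The table's rows were stretches next to primary sites rather than peaks set apart from them. Of the 11513, 10118 (87.9%) began or ended exactly 1 base from a primary site on the same strand. By this position 3881 sites lay downstream of a primary site (3′ of it), 3864 lay upstream (5′ of it), 2373 lay between 2 primary sites, and 1395 stood apart. Those that stood apart were a median of 470 bases from the nearest primary site of their strand, with the middle 80% between 240 and 836 bases. A site spanned a median of 169 bases (41 to 600 for the middle 80%). The mean level, the authors' normalised signal averaged over the 9 libraries, had a median of 35.8 (3.22 to 212). Per base, the median level was 0.185 at secondary sites and 3.38 at primary sites. The table assigned 7894 sites to 3559 genes and gave none for 3619. Of these genes 976 had 1 site, 1432 had 2 and 1151 had more, up to 8. No value per library is in these tables, so each change below is the authors' deposited log2 value with its standard error.

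The promoters of genes with secondary sites were rich in CpG beside all RefSeq promoters. Genes with a primary but no secondary site were not looked at, so whether this is particular to secondary sites was not tested. Over the 250 bases before the RefSeq gene start (GRCh38.p14), the 2396 such genes with an entry had a median of 21 CpG and an observed-to-expected CpG ratio of 0.81, against 11 CpG and a ratio of 0.56 over all 27305 RefSeq promoters. The GC box GGGCGG, searched on both strands, which SP1 factors bind, was in 68.2% of promoters of genes with secondary sites and in 42.3% of all promoters.

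Some promoters are printed because the results below turn on their genes. AEN had a downstream site that was higher with each treatment, and WTIP an upstream site that was higher with doxycycline. PPP1CC had an upstream site that was lower with each treatment. RPL39 and RPL3 are ribosomal protein genes whose downstream sites were higher with doxycycline, that of RPL39 also with Aza. The sequences are RefSeq's, in GRCh38.p14, at chr15:88621090-88621339 (+ strand) for AEN, chr19:34481508-34481757 (+ strand) for WTIP and chr12:110742892-110743141 (- strand) for PPP1CC. RPL39 is at chrX:119791631-119791880 (- strand) and RPL3 at chr22:39319624-39319873 (- strand). Each ends at the base before the gene start. Capitals mark matches on either strand, overlapping ones included, to the GC box GGGCGG, to the CCAAT box (those letters), to the TATA box TATAAA and to the E-box CACGTG.
AEN: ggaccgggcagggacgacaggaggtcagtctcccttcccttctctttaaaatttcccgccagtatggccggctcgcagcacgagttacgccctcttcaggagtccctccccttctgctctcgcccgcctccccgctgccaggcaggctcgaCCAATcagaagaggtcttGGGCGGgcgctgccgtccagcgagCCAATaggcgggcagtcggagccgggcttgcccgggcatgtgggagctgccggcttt
WTIP: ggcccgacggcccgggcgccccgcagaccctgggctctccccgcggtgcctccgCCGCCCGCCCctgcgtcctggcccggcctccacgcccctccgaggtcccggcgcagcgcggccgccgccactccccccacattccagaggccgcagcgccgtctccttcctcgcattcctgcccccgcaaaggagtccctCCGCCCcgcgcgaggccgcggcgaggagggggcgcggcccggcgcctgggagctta
PPP1CC: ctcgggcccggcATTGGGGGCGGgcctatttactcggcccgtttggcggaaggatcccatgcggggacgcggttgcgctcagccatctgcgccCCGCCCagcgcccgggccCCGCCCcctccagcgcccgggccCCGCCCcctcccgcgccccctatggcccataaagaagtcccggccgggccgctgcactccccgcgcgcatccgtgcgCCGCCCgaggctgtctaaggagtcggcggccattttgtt
RPL39: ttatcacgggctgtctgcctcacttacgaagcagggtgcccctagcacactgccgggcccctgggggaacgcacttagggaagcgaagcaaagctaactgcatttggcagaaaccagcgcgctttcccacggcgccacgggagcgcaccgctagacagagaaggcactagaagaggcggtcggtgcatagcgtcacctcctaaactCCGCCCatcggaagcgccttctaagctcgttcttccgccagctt
RPL3: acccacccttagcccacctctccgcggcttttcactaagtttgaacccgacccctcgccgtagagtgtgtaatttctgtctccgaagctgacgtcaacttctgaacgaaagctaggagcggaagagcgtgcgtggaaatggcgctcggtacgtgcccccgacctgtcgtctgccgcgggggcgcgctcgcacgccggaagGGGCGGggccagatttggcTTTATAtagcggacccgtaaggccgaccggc
AEN held 20 CpG, 1 GC box and 2 CCAAT boxes. WTIP held 36 CpG and 3 GC boxes, a pair of which overlap. PPP1CC held 32 CpG, 5 GC boxes and 1 CCAAT box. RPL39 held 20 CpG and 1 GC box, while RPL3 held 28 CpG, 1 GC box and a TATA box match on the reverse strand. CCAAT was in 33.0% of all RefSeq promoters, TATAAA in 11.1% and CACGTG in 6.49%. The site coordinates are in hg19, another build, so sites were not placed on these letters.

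More secondary sites were lower than higher with Aza, and more were higher than lower with doxycycline. At the adjusted p of the authors' table as deposited, 83 sites were higher and 152 lower with Aza than in untreated cells, of 11513 tested, or 2.04% called at an adjusted p below 0.05 (0.721% higher and 1.32% lower). With only the site of highest level of each gene, 78 were higher and 72 lower with Aza. With doxycycline 147 sites were higher and 100 lower (2.15% called, 1.28% higher and 0.869% lower). These comparisons share the untreated libraries. The middle of the table lay near 0, with a median log2 change of 0.01 for each treatment beside a median standard error of 0.33. The authors' normalisation can itself place the middle there, so this does not show whether initiation as a whole shifted. Signs of change here and below are relative to that normalisation. Primary sites, with a higher level and a median standard error of 0.21, were called more often (12.2% with Aza and 11.3% with doxycycline), with medians of 0.01 as well. More of them were lower than higher with each treatment, at 305 higher and 562 lower with Aza, and 318 and 489 with doxycycline. Called secondary sites had a median size of change of 0.69 with Aza and 0.77 with doxycycline, and median levels of 154 and 117.

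The direction of change went with the side of the primary site on which a secondary site lay. With Aza, 54 downstream sites were higher and 24 lower, whereas 17 upstream sites were higher and 88 lower. With doxycycline, 79 downstream sites were higher and 4 lower, and 44 upstream sites were higher and 76 lower. Called sites between primary sites were mostly lower with Aza (5 higher and 31 lower) and split with doxycycline (12 and 16). Of all 2373 sites between primary sites, called or not, 48.1% lay above 0 with Aza. The primary sites on either side of these leaned weakly the same way. The change of the 3′ one minus that of the 5′ one had a median of 0.07 with Aza and 0.05 with doxycycline. It was above 0 in 56.3% and 54.4% of cases. Sites that stood apart had 7 higher and 9 lower calls with Aza, and 12 and 4 with doxycycline. Over all sites, called or not, the median log2 change with Aza was 0.11 downstream and -0.08 upstream. With doxycycline it was 0.13 downstream and -0.11 upstream. Downstream, 62.7% of sites lay above 0 with Aza and 65.0% with doxycycline. Upstream, 41.7% did with Aza and 40.2% with doxycycline.

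**Figure D1:**
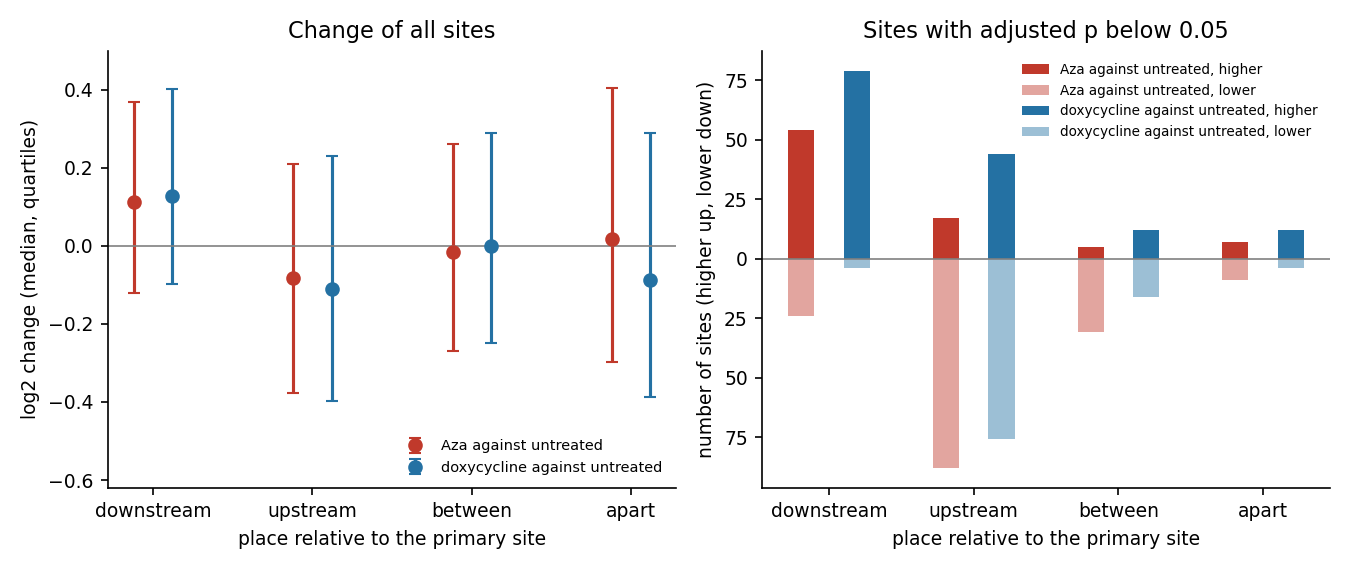
Left, the median log2 change (points) and quartiles (bars) of secondary sites by their place relative to the primary site. Right, the number of called sites in each place, higher above the line and lower below it. Downstream sites centre above 0 and upstream sites below it in both comparisons with untreated cells.

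The same split was looked for in subsets of the table. Such subsets come from the same libraries, so they describe the split and do not replicate it. Both comparisons also share the untreated libraries. On all 23 chromosomes that held sites, the downstream median was above the upstream median in each comparison with untreated cells, by 0.03 to 0.38 with Aza and 0.15 to 0.44 with doxycycline. It was similar on the plus strand (medians with doxycycline of 0.13 downstream and -0.13 upstream) and on the minus strand (0.13 and -0.09). At sites with no gene the medians with Aza were 0.09 downstream and -0.06 upstream, and with doxycycline 0.13 and -0.08. The doxycycline calls at these sites showed no such split, with 0 called downstream, and 27 higher and 26 lower upstream. Downstream sites were longer (a median of 300 bases, against 130 upstream) and higher (a median level of 56.1, against 34.7 upstream). When sites were put in 5 classes of mean level, the downstream median exceeded the upstream one in each. The calls did not split so in each. Upstream calls with doxycycline were 5 higher and 1 lower at levels of 7.11 to 22.3. They were 11 higher and 5 lower in the middle class (22.3 to 53.5). At levels of 53.5 to 123 they were 18 higher and 20 lower, and in the highest class 10 higher and 50 lower. In the lowest class, below a level of 7.11, both medians were above 0, at 0.30 downstream and 0.15 upstream with Aza. In the highest class, from 123 upwards, they were 0.07 downstream and -0.13 upstream with Aza, and 0.07 downstream and -0.16 upstream with doxycycline.

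**Figure D2:**
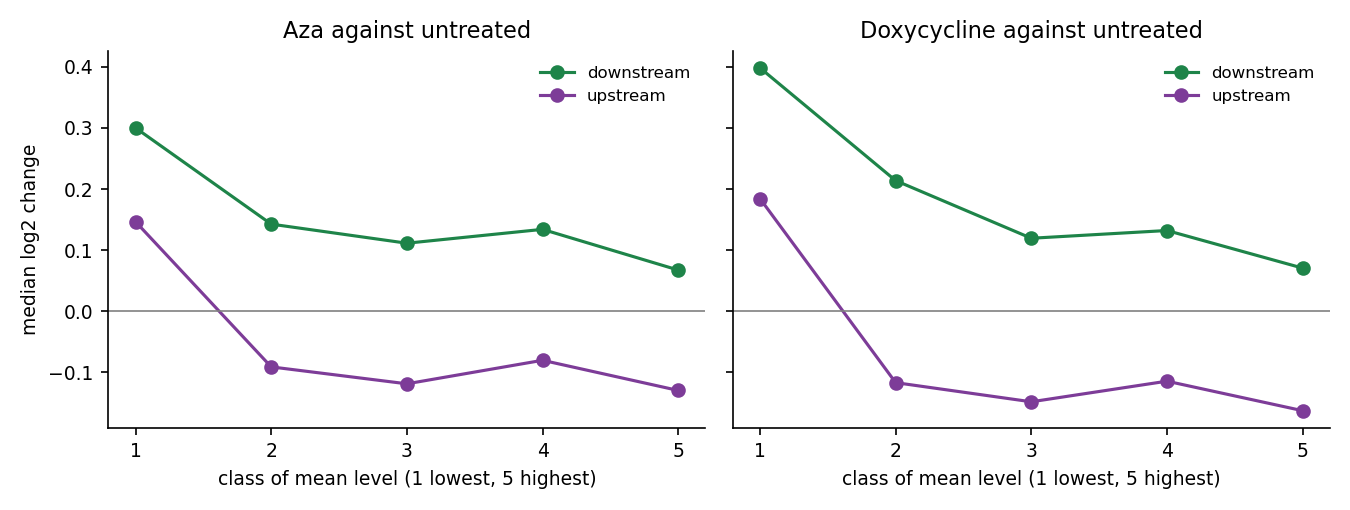
Median log2 change of downstream and upstream secondary sites (vertical axis) in 5 classes of mean level with nearly equal numbers of sites (horizontal axis), for each treatment against untreated cells. The downstream line lies above the upstream line in each class, and only in the lowest class is the upstream median above 0.

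The difference was then tested directly where both flanks of the same primary site were in the table, which was so for 2326 primary sites. This pairing was chosen after the values had been seen. The signed difference, the log2 change of the downstream site minus that of the upstream site, had a median of 0.23 with Aza and 0.29 with doxycycline. The downstream change was the higher one in 1607 pairs (69.1%) with Aza and 1689 pairs (72.6%) with doxycycline. By a two-sided z test of each difference, adjusted over all pairs, 32 pairs passed with Aza (1.38%) and 64 with doxycycline (2.75%), and in each the downstream change was above the upstream one. None passed in the other direction, at 292 and 356 pairs with an unadjusted p below 0.05 in either direction. The primary site itself had a median change of -0.05 with Aza in these pairs, between the medians of its flanks (0.12 downstream and -0.11 upstream). With doxycycline these medians were -0.04 at the primary site, 0.13 downstream and -0.16 upstream. Of the 32 pairs called with Aza, 15 had the upstream site alone called lower, 7 had the downstream site alone called higher, and 10 had neither site called by itself. Of the 64 called with doxycycline, these numbers were 17, 11 and 34, and in the remaining 2 both flanks were called.

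**Figure D3:**
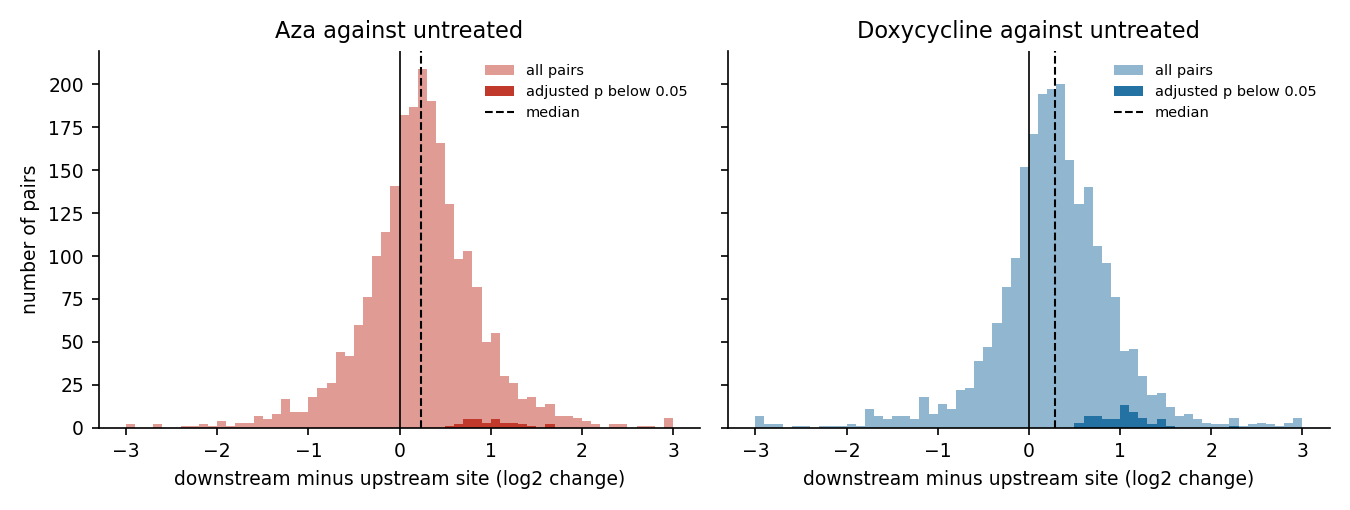
Number of primary sites (vertical axis) by the log2 change of the downstream secondary site minus that of the upstream one (horizontal axis), for 2326 primary sites with both flanks. The dashed line is the median, 0.23 with Aza and 0.29 with doxycycline, the darker bars are pairs that passed the test, and the end bars also hold pairs beyond the axis.

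SRRM1 and PDLIM5 were the 2 genes with calls in both directions in one comparison. At SRRM1, a splicing coactivator gene, the downstream site (chr1:24969831-24970160, plus strand, level 230) was higher with doxycycline by 0.58 ± 0.18 (adjusted p = 0.049) and the upstream site (chr1:24969580-24969779, level 336) lower at -0.72 ± 0.15 (adjusted p = 0.00069) in the authors' deposited table. Their difference was 1.30 ± 0.23 (z test, adjusted p = 3.4e-05), while the primary site between them stood at -0.08. Centred on the median of all secondary sites, the downstream SRRM1 site had 0.57 and was no longer called. At PDLIM5, whose protein has PDZ and LIM domains and binds actinin, the downstream site was at 0.52 ± 0.14 and the upstream one at -0.64 ± 0.17 with doxycycline in the authors' deposited table, a difference of 1.16 ± 0.22 (adjusted p = 0.00015). HPRT1, the purine salvage gene often used as a reference transcript, had 0.43 ± 0.16 downstream with Aza, and its flanks differed by 1.11 ± 0.28 (adjusted p = 0.0195). The splicing factor genes SRSF6 (0.89 ± 0.19 with Aza and 0.96 ± 0.19 with doxycycline) and SRSF3 (1.00 ± 0.23 with Aza and 1.06 ± 0.24 with doxycycline) also differed between flanks. These 5 genes were picked after their values had been seen.

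Among genes named by rule (the 8 highest and 8 lowest called sites of at least the median level), the sites that rose most with Aza were mainly downstream ones. LAMC3, a laminin chain gene of basement membranes, rose by 1.44 ± 0.28 with Aza at its downstream site (chr9:133884591-133884800, plus strand, level 60.3, adjusted p = 0.00023) in the authors' deposited table. The same site rose by 1.72 ± 0.27 with doxycycline (adjusted p = 8.6e-07) in the authors' deposited table. Its primary site had -0.06 ± 0.13 with Aza and 0.15 ± 0.13 with doxycycline, and neither passed. AEN, a nuclease gene that p53 induces, rose downstream (chr15:89164631-89165380, plus strand, level 107) by 1.11 ± 0.22 with Aza and 0.93 ± 0.22 with doxycycline in the authors' deposited table. There SLC35D2, a nucleotide sugar transporter gene (1.33 ± 0.31), PRSS35, a secreted serine protease-like gene (1.29 ± 0.27), and DMRT1, a male sex determination factor gene (1.25 ± 0.30), rose downstream with Aza. DOHH, the deoxyhypusine hydroxylase gene (1.00 ± 0.24), did so as well in the authors' deposited table. PCDP1, a cilium protein gene (1.44 ± 0.32), and MFSD4, a transporter family gene (1.35 ± 0.36), rose with Aza at upstream sites in the authors' deposited table.

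The sites that fell most with Aza were mainly upstream. STK38, a kinase gene of the NDR family, fell by 1.57 ± 0.25 with Aza at its upstream site (chr6:36515241-36515300, minus strand, level 87.7, adjusted p = 3.75e-06) and by 1.44 ± 0.25 with doxycycline in the authors' deposited table. Its primary site was lower too, at -1.03 ± 0.37 with Aza (deposited adjusted p = 0.0487). PCDH1, a protocadherin gene, had -1.45 ± 0.34 with Aza and MAP2K3, the kinase gene that activates p38, had -1.26 ± 0.27, both upstream, in the authors' deposited table. TCHH, the hair protein trichohyalin gene (-1.23 ± 0.34), DAPK3, a death-associated kinase gene (-1.22 ± 0.21), and PPP1CC, a catalytic subunit gene of protein phosphatase 1 (-1.18 ± 0.26), fell upstream with Aza in the authors' deposited table. XPO7, a nuclear transport receptor gene, fell between primary sites (-1.19 ± 0.35) and PPP1R15A, whose product directs that phosphatase to eIF2-alpha, at a site apart from any primary site (-1.16 ± 0.31), per the authors' deposited table.

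Doxycycline gave further high sites at KCNK6, a potassium channel gene (1.34 ± 0.28, downstream), TNS3, a tensin gene (1.25 ± 0.20, upstream), and C2CD4B (1.23 ± 0.27, downstream) in the authors' deposited table. HR, a corepressor gene (1.21 ± 0.26, between primary sites), CYP26A1, the retinoic acid hydroxylase gene (1.14 ± 0.21, downstream), and WTIP, a LIM domain gene (1.12 ± 0.15, upstream), followed in the authors' deposited table. MFSD4 had 1.81 ± 0.35 with doxycycline there, the highest of the named sites. With Aza the CYP26A1 site had 0.43 ± 0.22, the HR site 0.33 ± 0.27 and the KCNK6 site 0.53 ± 0.29, none of which passed, and the direct comparison of Aza with doxycycline did not pass at any of them. Lower with doxycycline, beside STK38, PCDH1 and PPP1CC, were LINC00925, a long non-coding RNA gene (-1.13 ± 0.30), and the upstream sites of MANBAL (-1.08 ± 0.33), C9orf69 (-1.05 ± 0.31), KCTD17, a cullin adaptor gene (-0.95 ± 0.27), and FAM111B (-0.90 ± 0.21), in the authors' deposited table. Lower levels held larger values: the site with the highest call in either comparison with untreated cells, apart from any primary site at chr17:79920590-79920660 with a level of 7.01 and no gene, had 5.34 ± 1.35 with Aza and 6.20 ± 1.33 with doxycycline in the authors' deposited table. It was picked after its values had been seen.

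**Figure D4:**
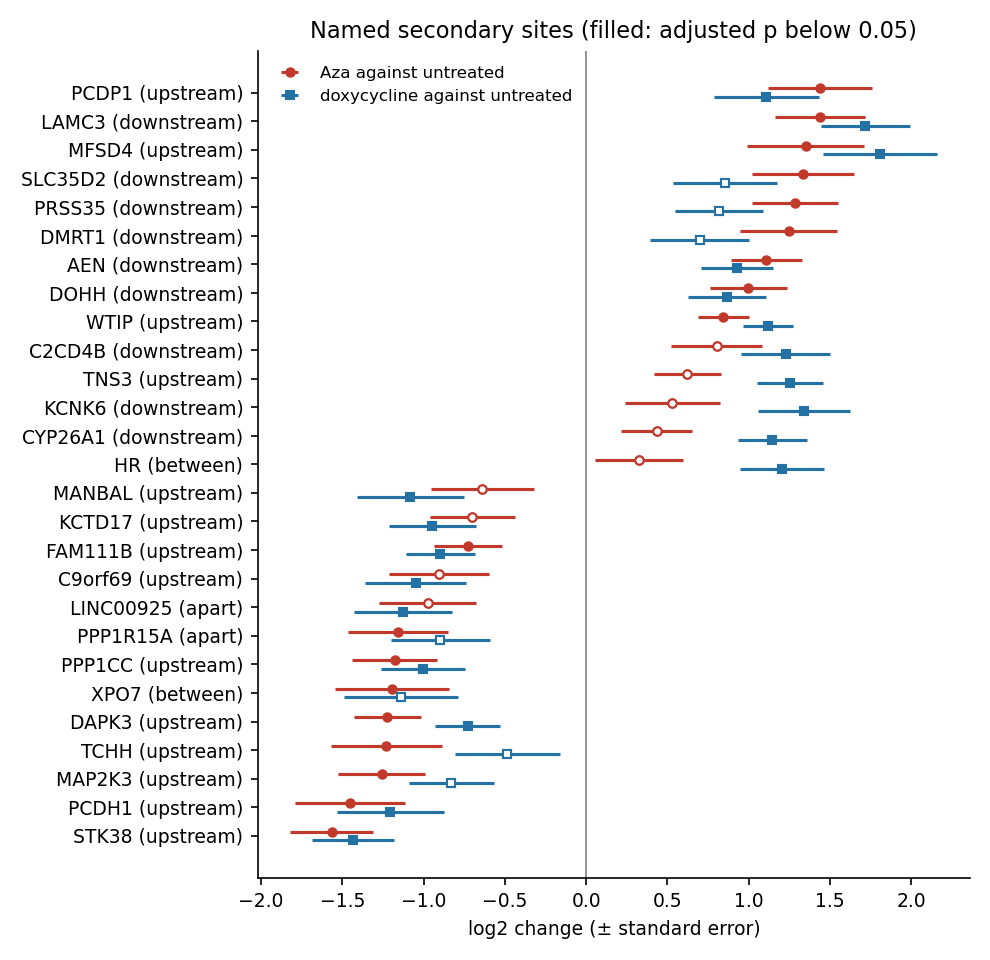
Log2 change against untreated cells (horizontal axis, bars are standard errors) of the secondary sites named by rule, with the place of each site in brackets. Filled symbols passed at an adjusted p below 0.05 and open ones did not. Sites of LAMC3, MFSD4 and PCDP1 lie near the top, and STK38 is lowest at -1.57 with Aza and -1.44 with doxycycline.

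Set directly against doxycycline, Aza gave 0 higher and 3 lower secondary sites (0.0261% called, 293 sites with an unadjusted p below 0.05). None of the 3 had a gene. They lay at chr1:1079450-1079799 (-1.58, adjusted p = 0.00020), chr1:1079841-1080009 (-1.49, adjusted p = 0.0083) and chr12:131355540-131355780 (-1.34, adjusted p = 5.2e-07), all on the plus strand, in the authors' deposited table. The pair on chromosome 1 are neighbours. Against untreated cells, they had 0.06 ± 0.31 and 0.01 ± 0.34 with Aza, and 1.64 ± 0.29 and 1.5 ± 0.31 with doxycycline. The chromosome 12 site had -0.40 ± 0.21 with Aza and 0.94 ± 0.20 with doxycycline. Between flanks the median difference of Aza from doxycycline was -0.06, and no pair passed (22 at an unadjusted p below 0.05). A lack of calls does not show that the treatments act alike, since the median standard error of this comparison was 0.33.

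Whether a secondary site changed unlike the primary site of its gene was tested for 7641 sites of 3338 genes, each against the gene's primary site of highest level. The difference is signed, the log2 change of the secondary site minus that of the primary site. With Aza it was above 0 at 94 sites and below 0 at 51 (1.23% and 0.667%), and with doxycycline at 21 and 14 (0.275% and 0.183%; z test, adjusted over all pairs). These counts moved with the setting: the 145 sites with Aza became 67 against the abutting primary site, and the 35 with doxycycline became 79 with a level of at least 10 at both sites and 77 with 1 site per gene. Of the 94, 69 were downstream sites and 3 upstream. Of the 51, 1 was downstream and 32 upstream. With doxycycline the split was 16 downstream and 2 upstream above the primary site, and 0 downstream and 11 upstream below it. None passed for Aza against doxycycline, where 60 had an unadjusted p below 0.05. The test combines the standard errors of both sites as if these were independent, though both were measured in the same libraries.

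At some genes the secondary site moved while the primary site did not, and at others the reverse held. LAMC3 differed from its primary site by 1.49 ± 0.30 with Aza (adjusted p = 0.00097) and 1.57 ± 0.30 with doxycycline (adjusted p = 0.00045), through the secondary site. At STK40, a pseudokinase gene, the downstream site had 0.43 ± 0.15 with Aza, which did not pass alone, while the primary site fell to -1.44 ± 0.32, giving a difference of 1.87 ± 0.35 (adjusted p = 0.00044). VIMP, an endoplasmic reticulum selenoprotein gene (1.59 ± 0.42), and HPCAL1, a calcium sensor gene (1.40 ± 0.37), had the same form with Aza, their primary sites standing at -1.11 and -1.18. XPR1, the phosphate exporter gene, had an upstream site at -1.07 ± 0.28 and a primary site at 0.25 ± 0.11 with Aza, a difference of -1.32 ± 0.30 (adjusted p = 0.0054). MAP2K3 (-1.29 ± 0.30) and PPP1CC (-1.22 ± 0.29) differed through their upstream sites, and SYPL1, a synaptophysin-like gene (-1.34 ± 0.31), through a primary site at 0.78 with Aza. With doxycycline FBLIM1, a filamin-binding gene (1.47 ± 0.33), and LONRF1 (1.13 ± 0.26) were above their primary sites. MFSD5, a molybdate transporter gene (-1.07 ± 0.21), and HNRNPH1, a splicing regulator gene (-1.01 ± 0.21), were below theirs with doxycycline.

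Within genes that had several secondary sites, the highest was compared with each of the others in 4335 pairs of 2583 genes. With Aza 9 pairs differed (0.208%) and with doxycycline 33 (0.761%). With a level of at least 10 at both sites, 27 pairs differed with Aza and 44 with doxycycline. Of the 33, 10 set a downstream site against an upstream one of higher level and 14 an upstream site against a downstream one of higher level. For Aza against doxycycline 0 pairs passed the z test (34 at an unadjusted p below 0.05).

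Among gene lists, the cytosolic ribosomal proteins held the most sites called higher with doxycycline. Of 76 listed genes 22 had secondary sites, 46 in all, of which 6 were called higher and 0 lower with doxycycline, and 1 higher and 0 lower with Aza, beside 1.28% and 0.721% of all secondary sites called higher. The 6 were RPL39 (0.78 ± 0.19), RPL13 (0.64 ± 0.16), RPL3 (0.63 ± 0.15), RPS7 (0.55 ± 0.16), RPL11 (0.51 ± 0.15) and RPS15 (0.48 ± 0.14), all downstream, with doxycycline in the authors' deposited table. RPL39 (chrX:118924660-118925519, minus strand, level 131) also rose with Aza, by 0.79 ± 0.19 in the authors' deposited table. All 22 downstream sites of the list were above 0 in each comparison with untreated cells. Of all downstream sites, 62.7% were with Aza and 65.0% with doxycycline. The comparisons share the untreated libraries, so they are not independent of each other. The medians of the 22 sites were 0.35 with Aza and 0.53 with doxycycline, against 0.11 and 0.13 over all downstream sites. Downstream medians of other lists varied. The 5 downstream housekeeping sites had 0.43 with Aza and 0.42 with doxycycline, and 13 of immediate early genes had -0.01 and -0.05. The 18 upstream sites had medians of -0.10 with Aza and -0.15 with doxycycline, near the -0.08 and -0.11 of all upstream sites. RPS15 showed the contrast at a single gene, with 0.32 ± 0.14 downstream (level 533) and -0.35 ± 0.12 upstream (level 560) with Aza, neither called alone, and a flank difference of 0.66 ± 0.18 (adjusted p = 0.0365). The primary sites of RPL39, RPL13, RPL3, RPS7 and RPL11 did not pass in either comparison. That of RPS15 was higher with Aza (0.28 ± 0.10, deposited adjusted p = 0.0488), near the value of its downstream site, and had 0.15 ± 0.10 with doxycycline, which did not pass. In total RNA none of the 6 genes passed with doxycycline, where the shrunken values lay between -0.05 and 0.03. Ribosomal protein genes have many processed copies in the genome, and how reads that match several places were counted is not given in the sources used here.

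**Figure D5:**
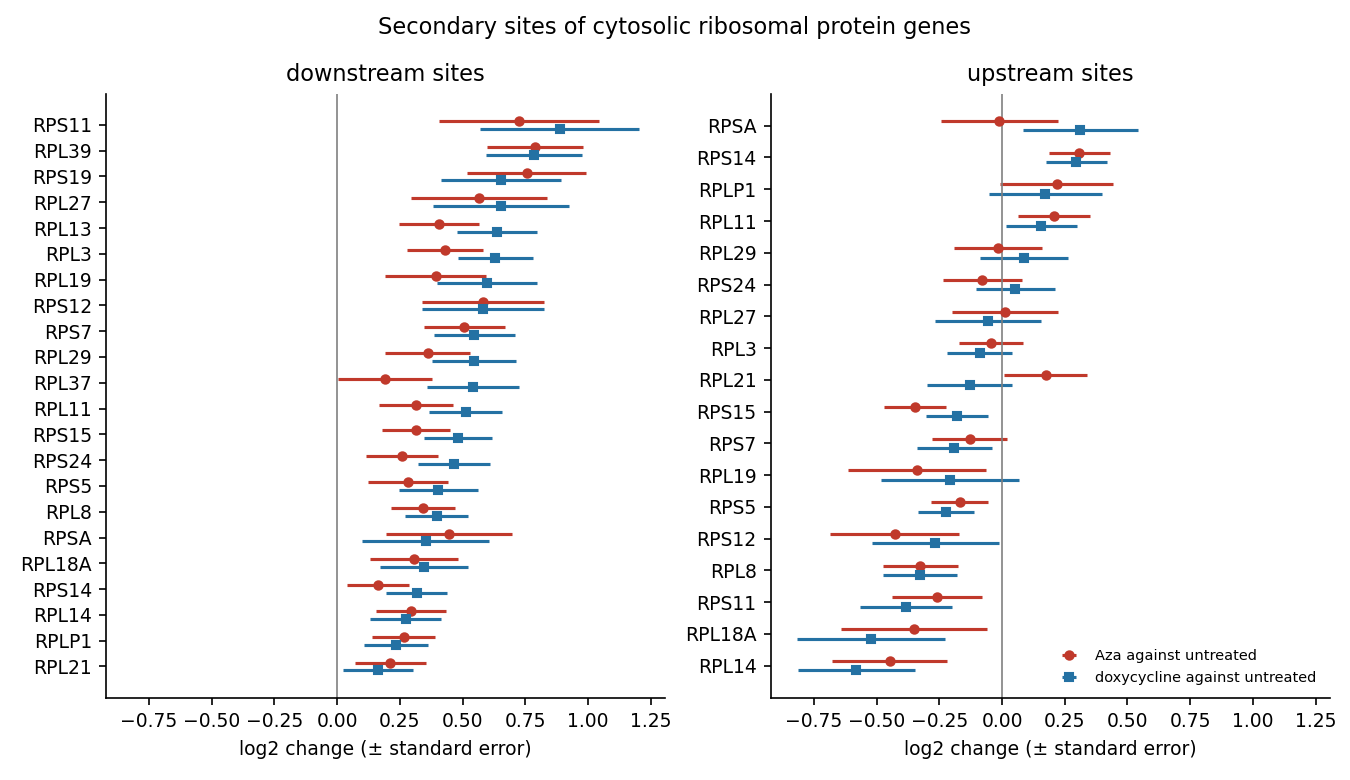
Log2 change against untreated cells (horizontal axis, bars are standard errors) of the downstream sites (left) and upstream sites (right) of cytosolic ribosomal protein genes, ordered by the doxycycline value. All 22 downstream sites lie above 0 with each treatment, and the 18 upstream sites lie on both sides of it.

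In the other gene lists, counts of called sites stand beside 2.04% of all secondary sites with Aza and 2.15% with doxycycline. With Aza 2 of 25 p53 target sites, 2 of 34 integrated stress response sites, 1 of 14 methylation machinery sites and 1 of 10 housekeeping sites were called. With doxycycline these numbers were 1, 1, 0 and 2. Such counts are too small to set a list apart. Of the p53 targets, AEN was higher with each treatment and PPM1D, a phosphatase gene of the p53 feedback loop, was lower with Aza between primary sites (-0.55 ± 0.15, adjusted p = 0.024) in the authors' deposited table. The sites of highest level in that list, at PLK2 (0.31 ± 0.11), GADD45A (0.18 ± 0.12) and BBC3 (-0.01 ± 0.13), did not pass with Aza. Among 14 sites of the cytosine methylation machinery, DNMT3B, a de novo methyltransferase gene, fell downstream with Aza in the authors' deposited table (-0.48 ± 0.12, adjusted p = 0.0078) and had -0.17 ± 0.12 with doxycycline, which did not pass. DNMT3A (-0.10 ± 0.15) and MBD2 (-0.46 ± 0.18) did not pass with Aza. Of the integrated stress response genes, PPP1R15A was lower with Aza and did not pass with doxycycline, and CEBPG was lower with Aza (-0.58 ± 0.17) and with doxycycline (-0.61 ± 0.17). The sites of highest level in that list, at ATF3 (-0.08 ± 0.09), STC2 (-0.49 ± 0.18) and CEBPB (-0.02 ± 0.10), did not pass with Aza. Of 10 housekeeping sites, PPIA, the cyclophilin A gene, rose downstream with Aza (0.48 ± 0.13), EEF2, an elongation factor gene, downstream with doxycycline (0.74 ± 0.22), and YWHAZ fell upstream with doxycycline (-0.58 ± 0.16), in the authors' deposited table. No site was called for immediate early genes (29 sites), replication-dependent histones (5), S phase genes (10), G2 and M phase genes (21), interferon response (9), mitochondrial ribosome (8), NRF2 targets (19), germline genes (4) or the MYC network (5). Median changes of these lists lay between -0.20 and 0.17 with Aza and -0.21 and 0.25 with doxycycline. These medians pool sites of every position. For G2 and M phase genes, the median with Aza was 0.28 at 10 downstream sites and -0.24 at 9 upstream sites. Replication-dependent histones went the other way with Aza, at 0.11 over 4 downstream sites and 0.19 at 1 upstream site.

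Total RNA was read for the same genes, with no test of its link to the sites. With Aza, 268 genes were higher and 248 lower of 3079 genes with a secondary site and a test. Of 62 genes with a site called higher, 5 were higher and 12 lower in total RNA, and of 96 with a site called lower, 3 were higher and 5 lower, beside 7.17% higher and 7.14% lower of all genes. The 5 were PCDP1, PRSS35, MDFIC, AEN (0.33 ± 0.06) and COL1A1 (0.95 ± 0.19), and the 12 included DDX21, an RNA helicase gene of ribosome synthesis (-0.27 ± 0.05, with its downstream site at 0.46 ± 0.11), in the authors' deposited table. PPM1D rose in total RNA (0.42 ± 0.05) while its site between primary sites was lower. With doxycycline 3 of 84 tested genes with a higher site were higher in total RNA (0 lower), and 1 of 63 with a lower site was higher, beside 0.656% higher of all genes. These were LAMC3 (0.43 ± 0.09, adjusted p = 2.3e-05), WNT3A, a Wnt ligand gene (0.48 ± 0.16), FAM78A (0.27 ± 0.09) and, with its site lower, C17orf70 (0.11 ± 0.04), in the authors' deposited table. With the mutant construct, LAMC3 RNA stood at 0.00 ± 0.02 with doxycycline, and the difference between constructs was not tested. The total RNA values are shrunken toward 0, so their sizes are not on the scale of the PRO-cap values.

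The same was done for transcription further into the gene. The authors' deposited table of elongation, for which the labels do not name the assay, held 3324 genes with a secondary site. Of 95 with a site called higher with doxycycline, 22 were higher and 0 lower there, and of 65 with a site called lower, 1 was higher and 6 lower, beside 3.46% higher and 2.06% lower of all genes in that table. With Aza, of 66 with a higher site 9 were higher and 5 lower, and of 98 with a lower site 5 were higher and 23 lower, beside 7.55% and 7.22%. LAMC3 (0.63 ± 0.08), WNT3A (0.84 ± 0.11), TNS3 (0.50 ± 0.09), CA4, a carbonic anhydrase gene (0.79 ± 0.22), and KCNK6 (1.09 ± 0.33) were among the 22 in the authors' deposited table. AEN was higher with Aza (0.57 ± 0.06, adjusted p = 8.5e-19), and TCHH (-1.02 ± 0.21) and PPP1R15A (-0.67 ± 0.12) were lower with Aza, in that table as deposited by the authors. SOX4, with a downstream site raised by Aza (0.48 ± 0.12), was lower in the elongation table (-0.36 ± 0.06). Whether the elongation and PRO-cap libraries share cells is not given in the sources used here.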

How the data were processed

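Nascent RNA 5′ ends were measured by PRO-cap in 9 libraries of HEK293 T-Rex Flp-in TET-CD-GFP cells, 3 each with Aza, with doxycycline and untreated, as grouped in the labels. Per the submitters' processing notes, Trim Galore 0.4.3, STAR 2.4.2, bedtools 2.20.1, R 3.5.1 and DESeq2 1.22.1 were used, with hg19 and chicken galGal5, and deepTools 3.0.2 for total RNA; their roles are not stated.

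The authors deposited comparisons only. Levels in the deposited tables are a signal, the mean over libraries of values normalised by the authors, and depth per library is unknown. Changes and their standard errors were deposited on a log2 scale. A deposited score equals the log2 change over its error. Each row has a raw and an adjusted p-value from the authors, and in the secondary table the adjusted ones equal a Benjamini-Hochberg adjustment over all 11513 rows. Total RNA log2 values are shrunken.

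A site was called where the deposited adjusted p-value was under 0.05. Position was set by a site starting or ending 1 base from a primary site of its strand. Differences between sites were tested by a two-sided z test with combined standard errors, adjusted over all pairs (Python 3.11.15, scipy 1.17.1, pandas 2.3.3, figures with matplotlib 3.10.9), and the code was tested on simulated data. Named genes were the 8 highest and 8 lowest called sites per comparison with at least the median level and a gene symbol (clone names left out), the 4 highest and 4 lowest differences from the primary site, and up to 3 members of each of 14 gene lists by level. The members, lists and tests were chosen with earlier results of these data known. Alternatives were a threshold of 0.01, a level of at least 10, centring, 1 site per gene and the abutting primary site. Of the 3559 gene names, 2396 matched a RefSeq promoter.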

Additional observations from a re-analysis of the deposited data

How the results depend on the processing

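No paired analysis was possible because the deposited tables hold no value per library, and for the same reason no library could be left out and no count test (edgeR or DESeq2) could be run. Centring on the median of all secondary sites left each count of called sites within 1.5 times. It could hardly do otherwise, as the medians taken off were 0.013 with Aza and 0.010 with doxycycline. Adjusting again over every site could only return the same calls, since the deposited adjustment already covers all 11513 rows. At an adjusted p below 0.01 the called sites were 83 with Aza and 86 with doxycycline, the sites unlike their gene's primary site 21 and 10, the differing sites of 1 gene 3 and 7, and the flank pairs 10 and 11, each with the downstream change above the upstream one. With 1 site per gene, adjusted anew, 150 sites were called with Aza (78 higher and 72 lower, in place of 83 and 152), 161 with doxycycline and 0 for Aza against doxycycline, since sites with no gene drop out, and 77 sites differed from the primary site with doxycycline. With a mean level of at least 10 at both sites, 79 sites differed from the primary site with doxycycline, and 27 pairs of sites of 1 gene differed with Aza, the flank pairs being 44 with Aza and 82 with doxycycline, of which 1 had the upstream change above the downstream one. Against the abutting primary site, an alternative chosen after seeing the data, 67 sites differed with Aza (46 above and 21 below). The median flank difference lay between 0.23 and 0.27 with Aza and between 0.29 and 0.30 with doxycycline. The direction of a called value of a named site could not turn under these settings. Only centring alters such values, by 0.013 with Aza and 0.010 with doxycycline, and the smallest called change was 0.33 with each. At the threshold of 0.01, 32 values lost their call, counting each site once per comparison. With centring the downstream SRRM1 site lost its call with doxycycline (0.57). Sites gained a call in 2 values with centring, 5 with a level of at least 10 and 2 with 1 site per gene. Depth limits the low sites most: 2915 of the 11513 had a level below 10.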
